A study of Bos taurus with 8 samples.

Results

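The keratin genes of cattle were examined in methylated DNA recovered by MIRA-Seq (methylated CpG island recovery assay followed by sequencing) from dermal fibroblasts. Members were all windows on chromosomes 1 to 29 whose gene symbol was KRT followed by a number, with or without a letter, or began with KRTAP. This rule used names and no measured value. It took 250 of the 902984 windows of 3 kb in the files and 77 of the 24024 gene symbols on these chromosomes. The members were 27 type I keratins in 96 windows, 26 type II keratins in 112 windows and 24 keratin-associated proteins in 42 windows.

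Keratins are the intermediate filament proteins of epithelia, and each filament is built from pairs of a type I (acidic) and a type II (neutral to basic) chain. Basal cells of the epidermis use KRT5 with KRT14, suprabasal cells KRT1 with KRT10, and simple epithelia KRT8 with KRT18, while the hair keratins are embedded in a matrix of keratin-associated proteins in the hair shaft. Fibroblasts are mesenchymal cells whose main intermediate filament protein is vimentin, so keratin genes are not part of their usual programme. The study that reported these data nevertheless lists KRT17 and KRT5 RNA as higher in Holstein than in Angus cultures before treatment.

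The libraries came from 4 Holstein (a dairy breed) and 4 Angus (a beef breed) heifers of the same age, one untreated skin fibroblast culture per animal at passage 5. Sonicated genomic DNA was enriched with methyl-CpG-binding proteins, and reads aligned to the UMD v3.1 genome were counted in windows of 3 kb. The cell type was not checked against marker transcripts, because the assay reads DNA and RNA data of these cultures were not analysed here. No unenriched DNA was analysed here, and a count rises both with the methylation of a window and with the number of its CpG sites, so the methylation and the CpG content behind a level cannot be told apart. In a bulk culture, neither can more methylated cells and more methylation per cell.

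The libraries held between 18691111 and 35525554 reads in windows, of which 4059 to 10605 lay in keratin windows. Levels are given as counts scaled to 1000000 reads in windows (CPM), and 3 reads corresponded to 0.0844 to 0.161 CPM, depending on the library. Holstein 1 and Angus 3 were the lowest libraries, with the median window with a gene symbol at 0.202 and 0.201 CPM against 0.268 to 0.476 in the other 6 libraries. Results that rest on them are given with and without them. Each library was of another animal and counted as a separate sample. Over the keratin windows the chi-square per window between libraries of a breed was 1.16 to 2.01, and the lowest value, for Holstein 3 and Holstein 4, was close to that of sampling noise.

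Keratin windows carried more reads than most gene windows in every library. Their median was 0.556 in Holstein 1, 0.995 in Holstein 2, 0.908 in Holstein 3, 0.971 in Holstein 4, 0.838 in Angus 1, 0.904 in Angus 2, 0.605 in Angus 3 and 0.695 CPM in Angus 4. The ratio of this median to that of all windows with a gene symbol ran from 1.85 to 3.00 over the 8 libraries, with a mean of 2.45. A mean of at least 1 CPM was reached by 98 keratin windows (39.2%), compared with 18.4% of all windows with a gene symbol. Most keratin windows hold a coding exon, and all gene windows with a coding exon were higher as well, with a median of 0.526 CPM (middle value over libraries) and 30.9% at or above 1 CPM. Of the keratin windows with a coding exon, 51.5% reached 1 CPM in type II keratins, 33.8% in type I keratins and 26.5% in keratin-associated proteins. By gene, 54 of the 77 keratin symbols lay above the median gene (0.551 CPM per window) and 27 above the upper quartile of all genes (1.25 CPM per window). These are descriptions of levels with no test, since neighbouring windows and related genes share sequence.

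**Figure D1:**
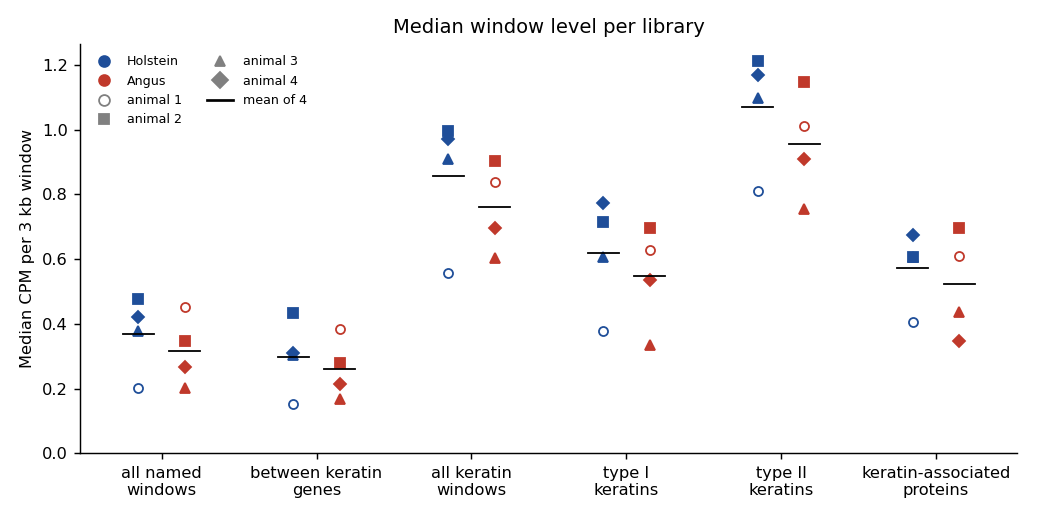
Median CPM per 3 kb window in each of the 8 libraries (points; blue Holstein, red Angus; black bars, mean of 4 libraries) for all windows with a gene symbol, windows lying between keratin genes, and the keratin classes. Type II keratins lie highest, between 0.756 and 1.21 CPM, and Holstein 1 and Angus 3 are the lowest library of their breed in most of the sets.

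The 3 classes differed in level. The median of the type II keratin windows over the 8 libraries was lowest at 0.756 and highest at 1.21 CPM, with a middle value of 1.05. The type I windows ran from 0.336 to 0.774 CPM around 0.617, and those of the keratin-associated proteins from 0.348 to 0.695 CPM around 0.606. The type II median exceeded that of both other classes in each of the 8 libraries. Among type II keratins 25 of 26 genes lay above the median gene, against 19 of 27 type I keratins and 10 of 24 keratin-associated proteins.

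Keratin genes lie in a few clusters, and the level differed between them. The type II genes, with KRT18 beside KRT8, occupy chr5:27170106-27911105 (114 windows), where the keratin windows had a median of 1.05 CPM (middle value over libraries) and the 133 windows between them 0.581. The type I genes and one group of keratin-associated proteins occupy chr19:41515475-42484474 (108 windows), with 0.617 CPM against 0.308 in the 215 windows between. On chromosome 1 the 10 keratin-associated protein genes from KRTAP11-1 to KRTAP24-1 (chr1:3969501-4959500) had 0.273 CPM against 0.182 between. By contrast, the group of KRTAP10 and KRTAP12 genes at chr1:145932901-146085900 had 1.25 CPM, and the windows between them were almost as high at 1.08. Only 14 of these 44 windows between had no gene symbol. Over all clusters 525 of the 704 windows between had none, and the rest belong to other genes. Among these are 58 genes with LOC names, of which RefSeq now names 2 as KRTAP2-1 and KRTAP17-1. KRTAP12-2 has its windows in 2 separate places on chromosome 1, and KRTAP5-6 stands alone on chromosome 29.

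Within the chromosome 19 cluster the level was higher towards KRT17. The 41 keratin windows from KRT222 to KRT40 had a median of 0.400 CPM (range over libraries 0.201 to 0.519). The 14 windows from KRTAP3-3 to KRTAP16-1 had 0.588 (0.430 to 0.760), and the 53 windows from KRT31 to KRT17 had 0.966 (0.604 to 1.21). On chromosome 5 the subgroups lay closer together: the inner root sheath keratins KRT71 to KRT75 had 1.15 CPM, the hair keratins KRT81 to KRT86 1.22, and the epithelial type II keratins 0.982.

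**Figure D2:**
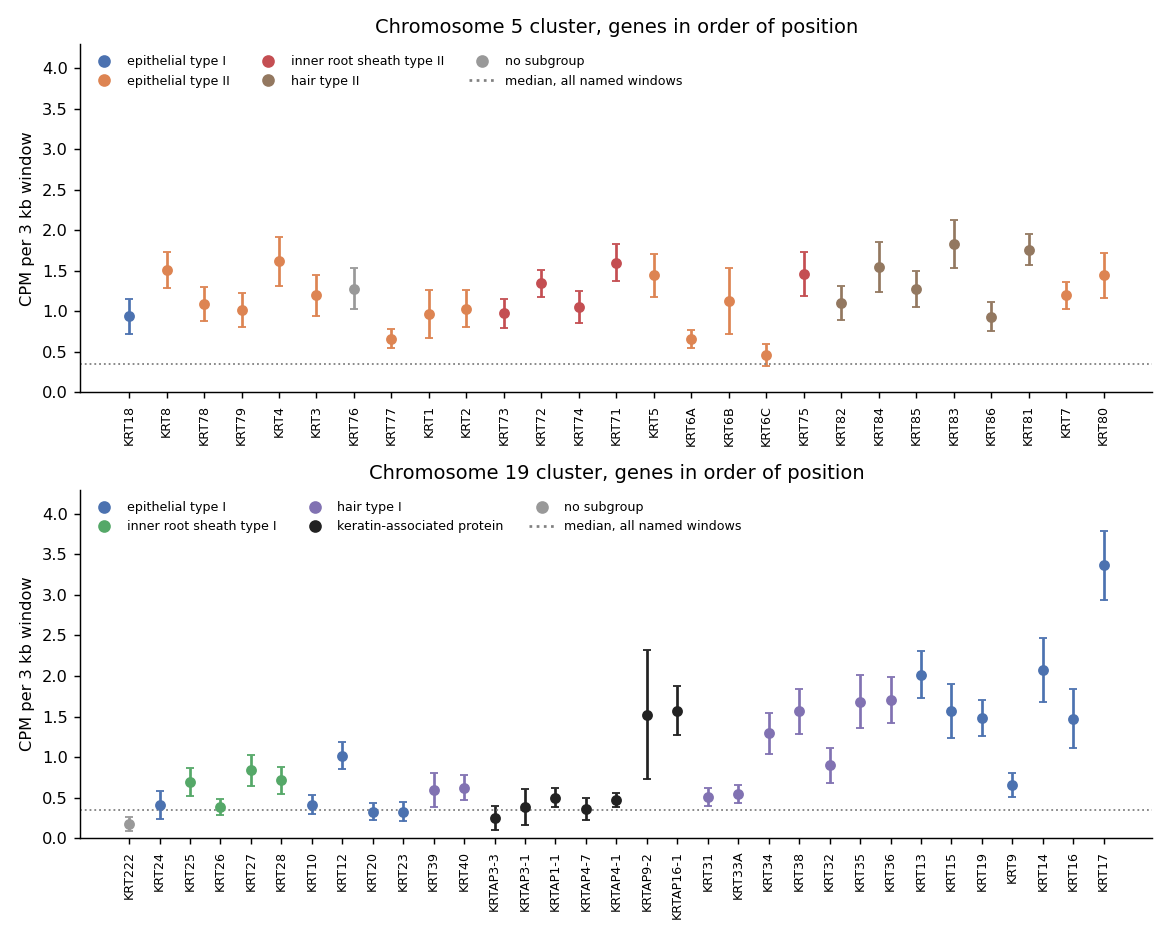
Mean CPM per 3 kb window for each keratin gene of the chromosome 5 (top) and chromosome 19 (bottom) clusters, in order of position (points, mean of 8 libraries; bars, SD; colours, subgroup; dotted line, median of all windows with a gene symbol). On chromosome 19 the genes from KRT13 to KRT17 stand above most of those from KRT222 to KRTAP4-1, and KRTAP9-2 has the widest bar.

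Among the type I keratins KRT17, a keratin of hair follicle and injured epidermis, was the highest of all members at 3.36 ± 0.43 CPM per window (SD, n = 8; 5 windows, chr19:42469475-42484474, minus strand). Its first window, taken by strand as the one where the annotated gene begins, was the highest keratin window of the files. It held no coding exon, and the place of the transcription start is not known. Its level was 6.37, 6.36, 6.58 and 7.60 CPM for the Holstein libraries 1 to 4 and 5.72, 7.13, 5.94 and 7.49 CPM for the Angus libraries 1 to 4, so the breeds overlapped (log2 fold change, Holstein against Angus, -0.11 ± 0.18 SE, FDR = 1.00). The basal keratin KRT14 had 2.07 ± 0.40 CPM per window and the mucosal keratin KRT13 2.02 ± 0.29. KRT15, another basal keratin, had 1.57 ± 0.33, and KRT19, a keratin of simple epithelia, 1.48 ± 0.22. The suprabasal KRT10 was much lower at 0.414 ± 0.117 CPM per window, near the intestinal keratin KRT20 (0.327 ± 0.102), KRT23 (0.326 ± 0.115) and KRT222 (0.176 ± 0.089).

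Among the type II keratins the hair keratins KRT83 (1.83 ± 0.29 CPM per window) and KRT81 (1.76 ± 0.19) and the mucosal KRT4 (1.62 ± 0.30) were highest. KRT8 of simple epithelia had 1.51 ± 0.22 and KRT5 of basal cells 1.44 ± 0.27. KRT7 had 1.20 ± 0.16, KRT2 of the upper epidermis 1.03 ± 0.23 and KRT1 0.966 ± 0.296. The lowest were KRT77 (0.663 ± 0.120), KRT6A (0.663 ± 0.109) and KRT6C (0.464 ± 0.137). Of the pairs that form filaments together, KRT5 and KRT14 were both high and KRT8 lay above KRT18 (0.943 ± 0.216). KRT1 exceeded its partner KRT10 by more than the SDs of both.

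Among the keratin-associated proteins KRTAP10-8 (1.82 ± 0.31 CPM), KRTAP16-1 (1.57 ± 0.30 CPM per window) and KRTAP5-6 (1.53 ± 0.26) were highest. KRTAP27-1 (0.173 ± 0.081), KRTAP15-1 (0.206 ± 0.150) and KRTAP11-1 (0.239 ± 0.101) were lowest, close to the level of 3 reads.

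Levels also differed within single genes. In KRT8 the third window (chr5:27218106-27221105) held 4.20, 3.72, 4.05 and 3.91 CPM for Holstein animals 1 to 4 and 3.21, 4.52, 3.16 and 4.66 CPM for Angus animals 1 to 4, whereas the other windows of the gene had means of 0.575 to 0.778. Every library showed this contrast, and the breeds overlapped. The cornea keratin KRT12 had 0.130 ± 0.086 CPM in its first window and 1.46 ± 0.23 in the others, and the simple-epithelial keratin KRT19 had 0.602 ± 0.284 against 1.92 ± 0.26, in both cases with the first window lower in 8 of 8 libraries. The reverse order, with the first window higher in 8 of 8 libraries, was seen in KRT85 (3.35 ± 0.46 against 1.07 ± 0.21), KRT16 (2.20 ± 0.56 against 0.748 ± 0.223) and KRT17 (6.65 ± 0.69 against 2.54 ± 0.38). The first windows of KRT85 and KRT17 held no coding exon.

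Over the genes with at least 2 windows, the first window was below the mean of the others in 29 of 63 keratin genes (46.0%), compared with 66.1% of 19860 genes in all. The number of windows per gene was not matched: the keratin genes held 250 windows in 77 genes, and all named genes 335024 windows in 24024. The part of gene length in this contrast was not tested. It was lower in 11 of 27 type I keratins, 12 of 26 type II keratins and 6 of 10 keratin-associated proteins. The first windows of type I keratins had a median of 0.836 CPM (middle value over libraries), their other windows 0.485 and the first windows of all genes 0.436. Type II keratins showed a smaller gap, 1.26 against 1.04 CPM, and keratin-associated proteins 0.492 against 0.578. Windows with a coding exon had 0.758 CPM in type I keratins against 0.273 without one, and 1.11 against 0.821 in type II keratins.

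The comparison of breeds asked whether the fibroblasts of Holstein and Angus heifers differ in methylation. A window was tested if it had at least 1 CPM in at least 4 libraries, and called if its FDR was below 0.1 and its fold change at least 2 (edgeR likelihood-ratio test, Benjamini-Hochberg adjustment over 115360 windows). Of the 250 keratin windows 107 were tested, from 51 genes, and 143 windows were not, so that 26 genes had no tested window. A window could pass the filter through the reads of one breed alone.

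Of the 107 tested windows 2 were called, both higher in Holstein and both in KRTAP9-2, against 0.231% of all tested windows. The quasi-likelihood test of edgeR called 1 of them (0.122% of all windows), and 3 passed the FDR limit when no fold change was required (0.368% of all). At an unadjusted p below 0.05 there were 6, which is a share near the 4.94% of all windows, and these were 4 windows of KRTAP9-2, 1 of KRT6B and 1 of KRT74. No type I keratin window was called or had an unadjusted p below 0.05 in the likelihood-ratio test, and none was called by the quasi-likelihood test. Without Holstein 1 the count was 3 of 105, with 0.493% of all windows called. The median log2 fold change of the tested keratin windows was -0.04, with the middle 50% between -0.12 and 0.10, against a median of 0.00 over all tested windows; 48 of the 107 were higher in Holstein. Scaled by total reads without TMM factors, the median of all windows moved to 0.14 and that of the keratin windows to 0.13, and 88 of the 107 lay above 0 against 77.5% of all windows.

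**Figure D3:**
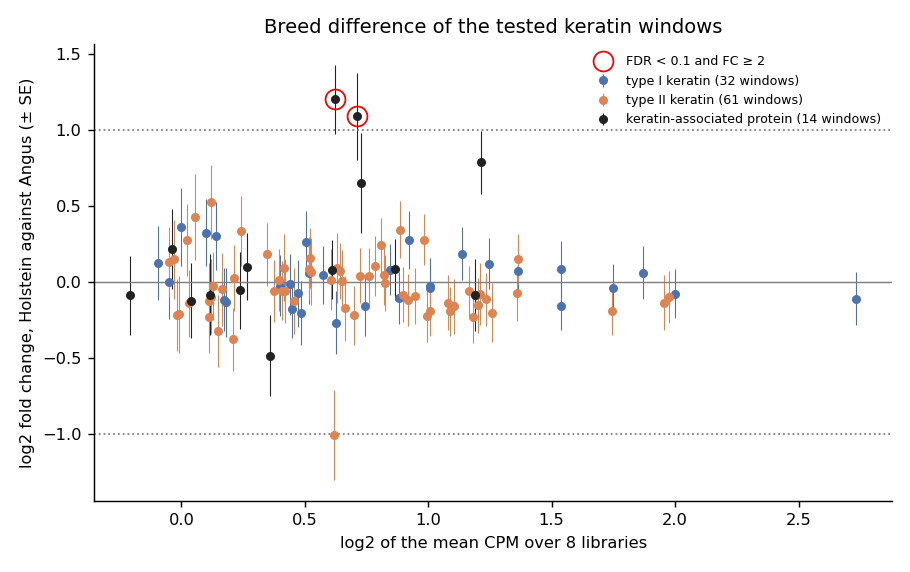
Log2 fold change between Holstein and Angus (y axis, bars ± SE, edgeR) against the log2 of the mean CPM (x axis) for the 107 tested keratin windows, coloured by class; red rings mark windows with FDR below 0.1 and a fold change of at least 2. Both ringed windows belong to KRTAP9-2, at 1.20 and 1.09, and the lowest point, at -1.01, is a KRT6B window.

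KRTAP9-2, an ultra-high-sulphur protein of the hair matrix, was the keratin gene with the largest breed difference. The files give it 5 windows in chr19:42097475-42115474 on the minus strand, interrupted by 1 window of LOC788170. The reads of window chr19:42109475-42112474 numbered 22, 74, 57 and 82 for Holstein animals 1 to 4 and 24, 22, 19 and 24 for Angus animals 1 to 4, or 1.11, 3.20, 2.16 and 2.31 CPM against 0.838, 0.765, 0.638 and 1.28 CPM. Holstein 2, 3 and 4 exceeded every Angus library, while Holstein 1 lay below Angus 4 on this scale and above it after TMM scaling (1.36 against 1.10). The log2 fold change was 1.20 ± 0.23 (FDR = 2.16e-04), and the quasi-likelihood FDR was 0.0191. The deepest stack of reads in this window was 7, 16, 17 and 32 reads for the Holstein libraries, in the same order, and 6, 8, 10 and 12 for the Angus libraries. The study lists this window from the same libraries, so its call here is not independent evidence.

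The windows beside it followed the same animals. Window chr19:42103475-42106474 held 0.759, 3.68, 2.57 and 2.42 CPM for Holstein animals 1 to 4, against 1.15, 0.765, 1.18 and 0.589 CPM for Angus animals 1 to 4 (log2 fold change 1.09 ± 0.29, FDR = 0.0542). The study does not list this window. The fit here called 267 windows in all, more than the study lists at the same FDR and fold change limits. Window chr19:42106475-42109474 held 1.52, 4.72, 2.80 and 3.27 CPM against 1.54, 1.70, 1.48 and 1.55 CPM, a log2 fold change of 0.79 ± 0.21 (FDR = 0.0527) that was below the fold change limit. The first window of the gene, chr19:42112475-42115474, held 0.961, 3.12, 2.46 and 2.25 CPM against 0.908, 1.22, 1.95 and 0.375 CPM and was not called (0.65 ± 0.33, FDR = 0.993). In CPM, Holstein 2, 3 and 4 were above the Angus libraries in all 4 windows, and Holstein 1 was within the Angus range in each of them. After TMM scaling this did not hold in the first window. There Angus 3 had 2.88, above Holstein 1 to 4 with 1.18, 2.78, 2.26 and 1.85.

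Summed over these 4 windows, the level was 4.35, 14.7, 9.99 and 10.2 CPM for Holstein animals 1 to 4, against 4.43, 4.45, 5.24 and 3.80 CPM for Angus animals 1 to 4. The Holstein mean was 2.19 times the Angus mean, 2.60 times without Holstein 1, and 1.83 times after TMM scaling. The adjoining windows showed smaller differences. The LOC788170 window inside the gene had a log2 fold change of -0.01, the fifth KRTAP9-2 window -0.39 and the LOC100848850 window just upstream of the gene start 0.31, all from the fit without a CPM filter and with an FDR of 1.00. Over the whole gene the log2 fold change was 0.77 ± 0.24 (unadjusted p = 0.0016) and was not called (FDR = 0.469). Without Angus 3 the gene was called, with 1.08. Keratin-associated proteins of this family have near-identical copies next to each other, so reads may have been placed on a copy, and the part of read placement in the difference was not tested.

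**Figure D4:**
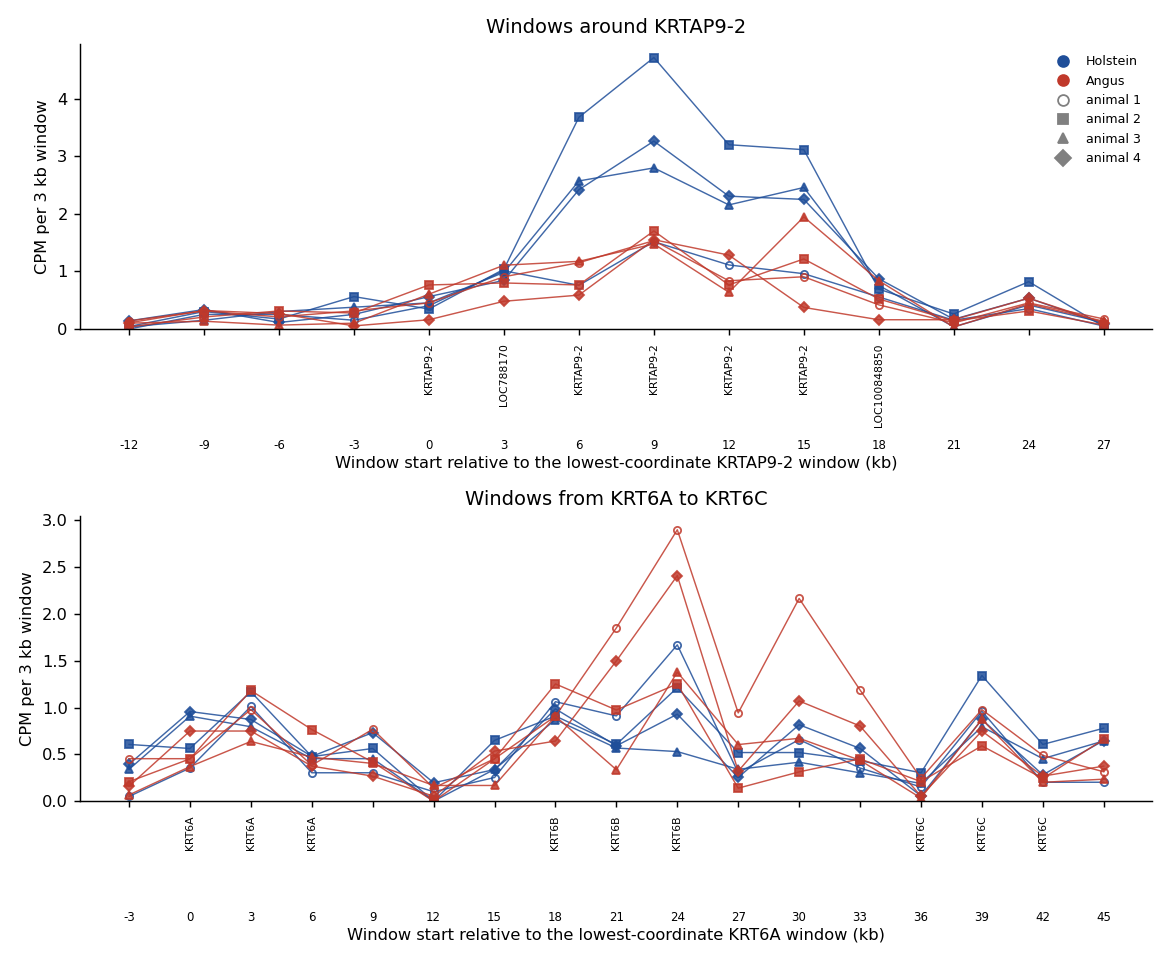
CPM per 3 kb window in each library (lines; blue Holstein, red Angus; open circles, animal 1) around KRTAP9-2 (top) and from KRT6A to KRT6C (bottom), against the start of the window relative to the lowest-coordinate window of KRTAP9-2 or KRT6A. At 6 to 15 kb in the top panel Holstein 2, 3 and 4 stand apart while Holstein 1 runs with the Angus libraries; in the bottom panel Angus 1 and Angus 4 are highest over the end of KRT6B.

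Among the 107 tested windows the largest fold change in the opposite direction was at KRT6B, one of 3 neighbouring and closely related genes for a keratin of wounded and fast-growing epithelium. Its last window, chr5:27581106-27584105, had 33, 28, 14 and 33 reads for Holstein animals 1 to 4, against 83, 36, 41 and 45 for Angus animals 1 to 4. In CPM these were 1.67, 1.21, 0.530 and 0.929 against 2.90, 1.25, 1.38 and 2.41. Angus 1 and Angus 4 were above every Holstein library, and Angus 2 and 3 were within the Holstein range. The log2 fold change was -1.01 ± 0.30 and the window was not called (unadjusted p = 6.83e-04, FDR = 0.151). It was called with chromosomes 1 to 29 alone in the fit (FDR = 0.0698), without Holstein 1 (-1.41, FDR = 6.34e-04) and without Angus 2 (-1.24). In the fit without a CPM filter a KRTAP13-1 window (chr1:4779501-4782500) had a lower log2 fold change, -1.99 (FDR = 0.532), on 0 to 3 reads in Holstein and 2 to 9 in Angus.

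Adjoining windows had values in the same direction. The middle window of KRT6B and the 3 windows with no gene symbol between KRT6B and KRT6C had log2 fold changes from -0.90 to -0.75 in the fit without a CPM filter, none with an FDR below 0.1. In the window of this gap that starts at 27587106, Angus 1 had 2.16 and Angus 4 1.07 CPM, against 0.416 to 0.816 in the Holstein libraries and 0.313 and 0.672 in Angus 2 and 3. Summed over the gene, KRT6B had 2.71 ± 0.70 CPM in Holstein and 4.07 ± 1.32 in Angus (SD, n = 4 each; log2 fold change -0.66 ± 0.27, unadjusted p = 0.0138, FDR = 1.00). Its neighbours had 2.09 ± 0.28 against 1.89 ± 0.38 for KRT6A and 1.55 ± 0.47 against 1.23 ± 0.32 for KRT6C. Reads of these 3 similar genes may be split among them by the alignment, so values for a single one are uncertain.

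With the reads of each gene summed, 61 of the 77 keratin genes were tested and 0 were called, against 0.0721% of the 19408 genes tested. The quasi-likelihood test and DESeq2 called 0 as well, and 2 keratin genes, KRTAP9-2 and KRT6B, had an unadjusted p below 0.05, against 1.97% of all genes. After these genes the log2 fold change farthest from 0 was that of KRTAP10-12, at -0.51 ± 0.31 (FDR = 1.00), and apart from KRTAP9-2 the other tested keratin-associated proteins ran from -0.22 to 0.09. Among the type II keratins none exceeded 0.14 in the Holstein direction, and the type I keratins ran from -0.23 to 0.27. KRT17 had -0.07 ± 0.16, KRT14 0.05 ± 0.15, KRT5 -0.06 ± 0.17, KRT8 -0.03 ± 0.17, KRT18 0.07 ± 0.23 and KRT1 0.01 ± 0.17.

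On the TMM scale the breeds did not overlap in 2 of the 107 windows, against 2.63% of all tested windows. These were the KRTAP9-2 window starting at 42109475 and a window of KRT80 (chr5:27899106-27902105), a late keratin of many epithelia, with 0.937 to 1.05 TMM-scaled CPM in Holstein and 1.17 to 1.43 in Angus. The KRT80 window was not called (log2 fold change -0.38 ± 0.21, FDR = 1.00), nor was that of KRTAP10-12 at chr1:145986901-145989900 (-0.48 ± 0.26). In KRTAP10-12 Holstein 1 had 0.556 CPM and Holstein 2, 3 and 4 had 1.30, 1.36 and 1.41, against 1.15, 2.16, 1.51 and 0.803 CPM in Angus 1 to 4, so the breeds overlapped.

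In CPM over all 8 libraries, the clusters of several windows differed between breeds by less than the spread between animals. The chromosome 5 cluster summed to 143 ± 23 CPM in Holstein and 133 ± 21 in Angus, and the chromosome 19 cluster to 109 ± 19 and 94.0 ± 15.1. The sums on chromosome 1 were 6.14 ± 1.20 against 6.15 ± 1.38 (KRTAP11-1 to KRTAP24-1), 1.79 ± 0.21 against 1.84 ± 0.24 (the first KRTAP12-2 group) and 8.49 ± 1.64 against 7.65 ± 1.56 (KRTAP10 group). The single KRTAP5-6 window on chromosome 29 had 1.66 ± 0.20 against 1.40 ± 0.27, a difference of 0.262 CPM that slightly exceeded its spread of 0.235. After TMM scaling the Holstein minus Angus differences were -3.12 CPM on chromosome 5, 4.89 on chromosome 19, -0.27 in the KRTAP10 group and 0.126 for KRTAP5-6, so the direction on chromosome 5 and in the KRTAP10 group depended on the scaling. In the first KRTAP12-2 group the TMM-scaled difference was -0.276 CPM, which exceeded the unscaled spread of 0.225 CPM. In both large clusters Holstein 1 and Angus 3 were the lowest library of their breed, at 110 and 104 CPM on chromosome 5 and 81.5 and 73.3 CPM on chromosome 19. Without Holstein 1 the Holstein minus Angus difference was 24.4 CPM on chromosome 19, 22.0 on chromosome 5 and 1.63 in the KRTAP10 group. These exceeded the spreads with all 8 libraries, 17.2, 21.6 and 1.60 CPM. Without Angus 3 the differences were 8.33, 1.3 and 0.913 CPM. That on chromosome 19 also exceeded the spread without Angus 2 (20.1 CPM) or Angus 4 (17.4 CPM). Of the 704 windows that lie between keratin genes, 66 were tested and 0 were called by the likelihood-ratio test, the quasi-likelihood test or DESeq2, with 4 at an unadjusted p below 0.05. These counts are near the shares over all tested windows, 0.231% called and 4.94% at an unadjusted p below 0.05. The study, however, lists a window of this set, that of LOC100848874 (chr1:4686501-4689500), as more methylated in Holstein. Here that window had 0.945 ± 0.721 CPM (SD, n = 8) and was not called.

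No gene of 3 lists of genes that work with keratins was called between breeds. Of 15 other intermediate filament and lamin genes 12 were tested, and 0 were called or had an unadjusted p below 0.05 (median log2 fold change -0.06). Of 20 genes of desmosomes, which anchor keratin filaments, and of the cornified envelope, 17 were tested and 0 called, with 1 at an unadjusted p below 0.05, the desmosomal cadherin DSC1 (0.30 ± 0.15). Of 18 regulators of epidermis and hair 16 were tested and 0 called, with 1 at an unadjusted p below 0.05, the transcription factor TFAP2A (-0.36 ± 0.17). The quasi-likelihood test and DESeq2 also called 0 in each of these lists. Over all genes tested 0.0721% were called and 1.97% had an unadjusted p below 0.05, so lists of this size would hold few or no calls at that share. In level, VIM (vimentin), the filament of fibroblasts, had 0.226 ± 0.076 CPM per window (SD, n = 8), below all but 3 of the 77 keratin genes. The median gene had 0.984 CPM per window among the intermediate filaments and lamins, 0.570 among the desmosome and cornified envelope genes and 0.749 among the regulators. The desmosome genes ran from 0.204 ± 0.082 for the cadherin DSC3 to 6.62 ± 1.56 for the plakophilin PKP3, and the regulators from 0.222 ± 0.071 for HOXC13 to 5.25 ± 1.01 for OVOL1.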

How the data were processed

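MIRA-Seq libraries of untreated fibroblasts from 4 Holstein and 4 Angus heifers, 1 per animal, were analysed. The submitters' processing notes name CASAVA 1.7. The authors aligned the reads to UMD v3.1 with NextGENe 2.3.4 and deposited, per 3 kb window, the read count and the coverage signal (lowest, highest and mean depth). Counts entered every fit, and the highest depth was used as a description only. Library sizes were the totals over windows (18691111 to 35525554 reads).

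Windows, and the reads summed per gene symbol, were tested over the whole table with edgeR 4.0.16 in R 4.3.3 (TMM, likelihood-ratio test, no covariates) where at least 4 libraries had at least 1 CPM. Calls needed an FDR below 0.1 and a fold change of at least 2, and SE is the size of the log2 fold change divided by the square root of the likelihood ratio. The quasi-likelihood test, DESeq2 1.42.0, other scalings and filters, and leaving out each library were alternatives, and the procedure was tested on simulated data. Clusters joined keratin windows less than 500 kb apart, and the first window was taken by strand.

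The members, classes and other gene lists were chosen with earlier results of these data known. Genes named were those called in any fit with all 8 libraries, the 3 highest and 3 lowest of each class, 12 epithelial keratins of known layers and the 3 largest fold changes in each direction. Windows of KRT12, KRT16, KRT74, KRT85 and the KRT6 group, and genes of the other lists, were named after their values were seen. Of the 77 symbols 71 matched RefSeq names. Sequences were not used here. Because nothing links same-numbered animals of the breeds, the numbers were not used to pair them.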

Additional observations from a re-analysis of the deposited data

Results flagged for a closer look

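In groups of 4 libraries the gap of the most extreme one to its nearest neighbour was compared with Dixon's 95% critical value. Chance alone passes about 1 in 20 groups, and 8 of the 88 groups examined passed. Holstein 1 was the lowest Holstein library for KRTAP10-12, as a gene and as its single window (0.556 CPM against 1.30, 1.36 and 1.41), for KRT80 (1.01 CPM per window against 1.70, 1.65 and 1.68), for KRT14 (1.72 against 2.35, 2.42 and 2.34) and for the summed chromosome 5 cluster (110.0 CPM against 153, 152 and 159). Angus 3 was the lowest Angus library for KRT2, at 0.722 CPM per window against 1.13, 1.12 and 1.16. Angus 1 was the highest Angus library for KRT6C, at 0.57 CPM per window against 0.348, 0.369 and 0.357. Holstein 4 was the highest Holstein library for the KRTAP12-2 group on chromosome 1, at 2.11 CPM against 1.72, 1.64 and 1.70. Holstein 1 and Angus 3 also had the smallest TMM factors, 0.817 and 0.677, against 0.952 to 1.22 in the others. The part of library composition in these values was not tested.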

How the results depend on the processing

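The 2 called keratin windows became 1 under the quasi-likelihood test, DESeq2 and an FDR limit of 0.05, and 1 to 3 when a library was left out (3 without Holstein 1 or Angus 3, 2 without Angus 2, 1 without any of the others). With at least 1 CPM in all 8 libraries 48 keratin windows were tested and 0 called by the edgeR likelihood-ratio test, with 1 at an unadjusted p below 0.05; neither called window passed that filter. The KRTAP9-2 window starting at 42109475 kept its call in each fit that tested it (log2 fold change 1.02 to 1.35). The one starting at 42103475 was not called with the quasi-likelihood test (1.12), DESeq2 (1.06) or without Holstein 2, 3 or 4 or Angus 1, 2 or 4 (0.83 to 1.42 over all libraries left out in turn). The first KRTAP9-2 window was called without Angus 3 (1.31; range 0.36 to 1.31), and the KRT6B window with chromosomes 1 to 29 alone (-1.03) and without Holstein 1 or Angus 2 (-1.41 to -0.74). Called genes numbered 0 to 1 when a library was left out, being KRT6B without Holstein 1 (-1.06) and KRTAP9-2 without Angus 3 (1.08). The Holstein minus Angus sum of the KRTAP12-2 group moved from -0.05 to -0.28 CPM with TMM scaling, that of the chromosome 5 cluster from 10.8 to -3.12, of the KRTAP10 group from 0.84 to -0.27 and of chromosome 19 from 15.2 to 4.89. As means in place of medians, the windows had 0.744 CPM in keratin-associated proteins, 0.935 in type I and 1.22 in type II keratins, and with library sizes over chromosomes 1 to 29 the type II median was 1.23 CPM. The causes were not tested. No direction of a called value reversed under these alternatives, and 245 values stayed on their side of the threshold or within the replicate spread. Another 16 values moved, 8 lost a call and 6 gained one. The 245 include counts of called windows that rose from 2 to 3, and cluster differences that exceeded the spread without Holstein 1.

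The animal numbers 1 to 4 occur in both breeds but nothing says that they pair the animals: deviations of same-numbered libraries correlated at -0.21 to 0.13, and 1 of 8 libraries correlated best with its own number. With the number as a block, 2 keratin windows and 0 keratin genes were called (edgeR likelihood-ratio test, 7 windows and 2 genes at an unadjusted p below 0.05). Depth limits what could be detected: 143 of the 250 keratin windows were below the CPM filter.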
